A study of Mus musculus with 4 samples.

Results

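The 10 genes described here mark lipid-associated macrophages, a state built around the surface receptor Trem2, and were examined in tumor-associated macrophages (TAMs) of B16 melanoma. The genes are Trem2 and its adaptor Tyrobp, the lipid carriers and lipid-handling genes Apoe, Lpl, Fabp4 and Fabp5, the cholesterol exporters Abca1 and Abcg1, and the secreted proteins Lgals3 and Spp1. They were chosen by symbol and matched to their Entrez identifiers, and 10 of 10 were found among the 16739 genes with a value above 0 in any library. RNA was sequenced from CD45+ CD11b+ F4/80+ cells sorted on day 16 from tumors that B16-F10 cells, a C57BL/6 melanoma line, had formed under the skin of the abdomen. Recipients were C57BL/6 mice aged 6 to 8 weeks at injection, and of the 4 samples 2 were WT and 2 were labelled Trim24-/- and described as deficient for Trim24 in myeloid cells. By the study's methods, the deficient mice were Trim24 flox/flox with LysM-Cre, a Cre recombinase driven from the lysozyme M locus in myeloid cells, and the controls were WT littermates. Whether the controls carried a floxed allele or Cre is not given in the sources used here. All 4 samples came from the same tumor model, so there was no tumor-free reference.

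As background, Trem2 binds lipids, lipoproteins and debris of dying cells, and it signals through Tyrobp (DAP12), whose cytoplasmic tail recruits the kinase Syk. Macrophages in fat tissue, atherosclerotic plaques and tumors that take up much lipid raise a shared set of genes for binding, breaking down, carrying and exporting it. Cholesterol that enters the cell in this way gives rise to ligands of the nuclear receptor LXR, which switches on Abca1, Abcg1 and Apoe, whereas the nuclear receptor PPARγ is a known regulator of Fabp4, Cd36 and Lpl.

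The libraries held 4476122 to 5172407 expected counts each, so that the detection floor of 3 counts, which covers counting error alone, stood at 0.606 to 0.639 CPM (counts scaled to a common library size after TMM). Trim24 reached 5.82 CPM in WT replicate 1, 2.12 CPM in WT replicate 2, and 3.43 and 0.411 CPM in replicates 1 and 2 of the mutant group, so the groups overlapped. The mutant samples are therefore named labelled-deficient libraries, after their label. Unlike Trim24, the female transcript Xist and the Y-linked Ddx3y parted the groups. Xist was at 6.51 to 10.9 CPM in WT and 256 to 437 CPM in the labelled-deficient libraries. Ddx3y was at 73.6 to 102 CPM in WT against 0.411 to 0.426 CPM. The study's methods describe sex-matched mice. Genotype label and the sex that these transcripts mark cannot be told apart in any difference below. Of 12 macrophage markers 12 were tested and 0 were called, with a summed level of 18185 to 21727 CPM, whereas keratinocyte and fibroblast markers summed to at most 5.96 CPM. Melanoma markers were present at 611 to 813 CPM in sum, of which Tyr made 375 to 496 CPM, with 0 of 7 called. Neutrophil markers summed to 177 and 206 CPM in WT and to 271 and 410 CPM in the labelled-deficient libraries (0 called of the 4 of 7 tested). T and NK cell markers summed to 197 CPM in labelled-deficient replicate 1 and to 54.8 to 80.3 CPM in the other libraries (5 of 6 tested, 0 called), and dendritic cell markers to 79.1 CPM in that library and 36.9 to 48.7 CPM in the others (5 of 7 tested, 0 called). B cell markers summed to 46.3 to 55.4 CPM (1 of 4 tested, 0 called).

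The upstream sequence of 5 of the 10 genes could be matched in RefSeq (GRCm38.p6), and 4 are shown, namely the 3 whose libraries did not overlap between the groups (Trem2, Lgals3 and Abca1) and Spp1, which varied most among libraries. Each run gives the 250 bases before the most upstream start in the RefSeq table, 5′ to 3′ on the gene's own strand, at chr17:48346151-48346400 (plus strand) for Trem2, chr14:47373610-47373859 (plus strand) for Lgals3, chr4:53159896-53160145 (minus strand) for Abca1 and chr5:104434861-104435110 (plus strand) for Spp1. Capitals mark matches, on either strand, to any of 6 short motifs, which were the Stat6 site (TTC and GAA with 4 bases between), the AP-1 site (TGA and TCA with 1 base between), the E-box CACGTG, the PU.1 core GAGGAA, the TATA box TATAAA, and the DR4 site of LXR (AGGTCA repeated with 4 bases between, up to 2 mismatches).
Trem2: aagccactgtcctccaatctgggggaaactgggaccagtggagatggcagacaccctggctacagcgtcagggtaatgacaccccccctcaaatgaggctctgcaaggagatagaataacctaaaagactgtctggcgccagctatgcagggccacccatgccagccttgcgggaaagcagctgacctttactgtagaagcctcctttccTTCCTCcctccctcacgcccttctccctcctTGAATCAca
Lgals3: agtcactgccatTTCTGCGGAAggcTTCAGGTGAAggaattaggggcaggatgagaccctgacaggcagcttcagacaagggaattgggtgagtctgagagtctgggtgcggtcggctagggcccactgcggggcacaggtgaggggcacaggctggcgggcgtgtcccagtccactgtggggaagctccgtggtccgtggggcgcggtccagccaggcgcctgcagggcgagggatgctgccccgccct
Abca1: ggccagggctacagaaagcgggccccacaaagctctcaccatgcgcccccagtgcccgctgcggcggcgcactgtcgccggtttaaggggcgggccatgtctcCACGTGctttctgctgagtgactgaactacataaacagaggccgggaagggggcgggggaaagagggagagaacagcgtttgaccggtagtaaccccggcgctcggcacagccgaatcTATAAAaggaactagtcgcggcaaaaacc
Spp1: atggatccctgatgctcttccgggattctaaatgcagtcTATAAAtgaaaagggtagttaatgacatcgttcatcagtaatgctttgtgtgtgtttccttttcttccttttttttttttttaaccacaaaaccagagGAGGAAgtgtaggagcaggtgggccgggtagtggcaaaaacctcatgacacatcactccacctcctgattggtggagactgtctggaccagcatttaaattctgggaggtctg

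Lgals3 held 2 matches to the Stat6 spacing, from -238 to -229 and from -225 to -216 relative to the start, a motif that 5.85% of 32851 upstream windows contained at least once. Trem2 held a match to the AP-1 spacing, with any middle base accepted and here an A, from -9 to -3 (6.75% of windows). It also held a PU.1 core on the opposite strand from -40 to -35 (23.3% of windows). Abca1 held a TATA box from -29 to -24 (12.4% of windows) and an E-box from -147 to -142 (6.02% of windows). Spp1 held a PU.1 core from -113 to -108 and a TATA box from -211 to -206. In the fifth matched gene, Apoe, a PU.1 core stood from -250 to -245. None of these 5 windows held the DR4 motif at this stringency, which 2.57% of windows did. Looser DR4 matches, with more than 2 mismatches, were not searched, so the windows may still hold such sites. The RefSeq starts of Abca1 and Apoe lie inside the gene intervals given below, so the window of Abca1 lies partly, and that of Apoe wholly, within its interval, and motif positions count from the RefSeq start. The matches describe letters in these windows, and binding was not measured here.

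The 10 genes spanned a wide range of abundance in TAMs. On the FPKM scale, which divides by transcript length and so allows genes to be compared, Apoe stood highest at 2313 to 5809 FPKM across the 4 libraries and ranked 6 to 22 among all genes. Apoe, a lipoprotein component that macrophages secrete to carry lipid away, alone took 0.291% to 0.730% of all counts. Tyrobp followed at 1525 to 2496 FPKM and Lgals3 at 1000 to 1645 FPKM. Although the ranges of neighbors in this order overlapped, Apoe was above Tyrobp and Tyrobp above Lgals3 in 4 of 4 libraries.

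A middle group was formed by Spp1 (178 to 633 FPKM), Trem2 (220 to 524 FPKM) and Fabp5 (217 to 359 FPKM), whose order was not fixed, since Spp1 exceeded Trem2 in 2 of 4 libraries and Trem2 exceeded Fabp5 in 3 of 4. Lpl was lower at 79.0 to 158 FPKM, and Abcg1 lower again at 32.0 to 57.8 FPKM. Fabp4 (6.82 to 12.1 FPKM) and Abca1 (6.78 to 14.1 FPKM) were least abundant and overlapped. All 10 genes together held between 1.24% and 1.91% of the summed FPKM of a library.

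**Figure D1:**
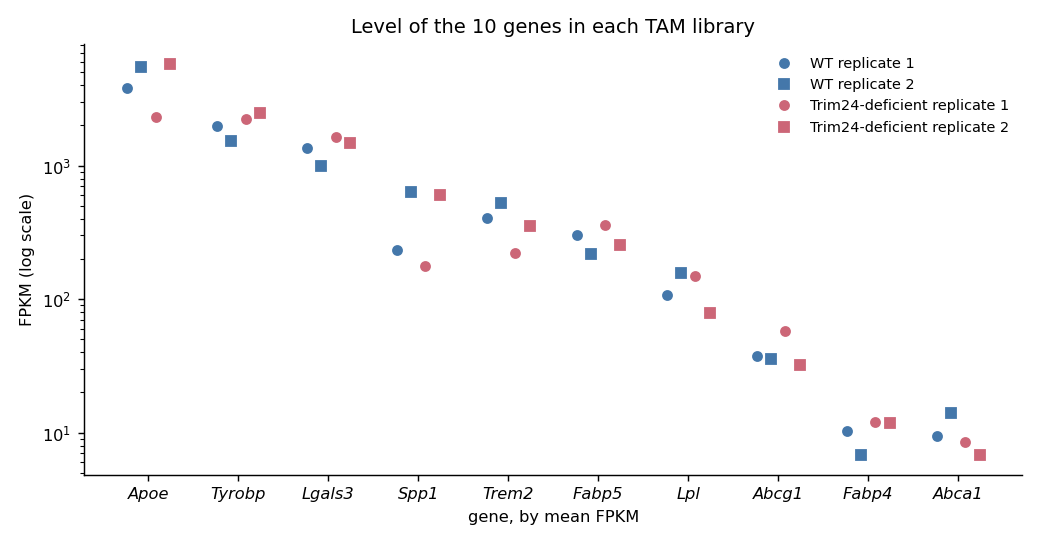
Level of each of the 10 genes in FPKM on a log axis, with 1 point per library (blue WT, red labelled Trim24-deficient, circles replicate 1, squares replicate 2) and genes ordered by mean FPKM. Apoe, Tyrobp and Lgals3 lie above 1000 FPKM in every library, Fabp4 and Abca1 reach at most 14.1, and Spp1 separates by replicate number more than by genotype label.

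The comparison of WT TAMs with the labelled-deficient libraries asks whether loss of Trim24 in myeloid cells went with a change of this lipid-associated set. Trem2 and Abca1 were lower, and Tyrobp, Lgals3 and Fabp4 higher, in both labelled-deficient libraries than in both WT libraries, with log2 fold changes from -0.54 to 0.61, and none of these differences passed the test. Apoe, Lpl, Fabp5, Spp1 and Abcg1 overlapped between the groups. A gene was called if edgeR's quasi-likelihood fit gave over 1.5-fold change with FDR under 0.05. Of the 10 genes 0 were called, where 0.372% of the 11302 tested genes were (42 genes, 33 higher and 9 lower). At an unadjusted p below 0.05 stood 1 of 10, Tyrobp, against 12.2% of all tested genes, and DESeq2 and limma also called 0 of 10.

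Adjusted p-values of the 10 genes ran from 0.377 to 0.994. Of the 10, 3 lay above WT without overlap, where 21.5% of all tested genes did, and 2 lay below WT without overlap, where 23.0% did. Their median log2 fold change was 0.20, beside -0.0059 over all tested genes. With 2 samples per group, an exact two-sided permutation test of a single gene cannot go below p = 0.333. The labels do not say more of the origin of replicates than that each is a separate sample, so p-values measure the spread between these samples. As the RNA comes from bulk populations, fewer cells of a type and less RNA per cell cannot be told apart.

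**Figure D2:**
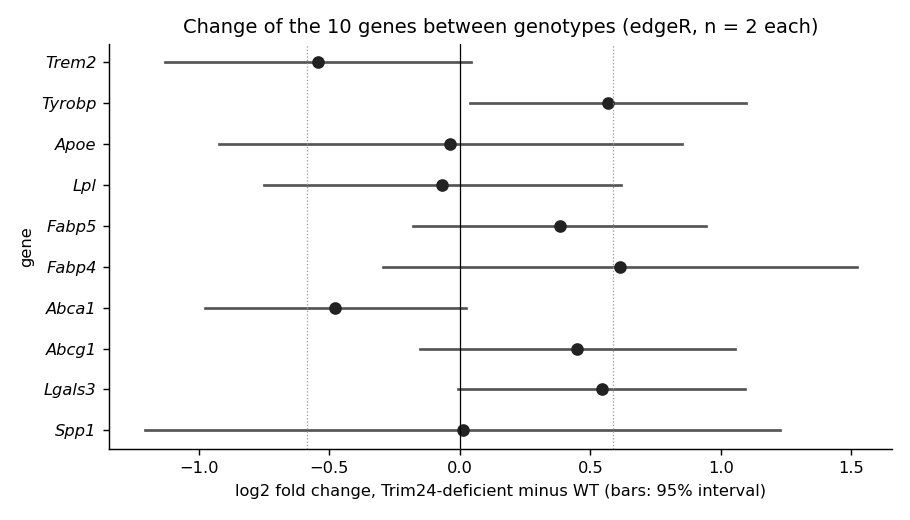
Log2 fold change of each of the 10 genes, libraries labelled Trim24-deficient minus WT, from edgeR with 2 libraries per group. Points are estimates, bars their 95% intervals, and dotted lines mark a 1.5-fold change in either direction. Every interval except that of Tyrobp includes 0, and Tyrobp did not pass after adjustment over all tested genes.

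The receptor and its adaptor had log2 fold changes of opposite sign, and neither passed the test. Trem2 (Entrez 83433; chr17:48346401-48352276, plus strand) was at 427 and 531 CPM in WT (replicate 1, then 2, as in all sentences of this form) and at 251 and 407 CPM in the labelled-deficient libraries. Both labelled libraries were below both WT libraries, although replicate 2 lay only slightly under WT replicate 1. Its log2 fold change was -0.54 (SE 0.26, 95% interval -1.13 to 0.044, adjusted p = 0.433). Without labelled-deficient replicate 2 it was -0.93 (adjusted p = 0.0206) and was called, and without replicate 1 of that group it was -0.23 (adjusted p = 0.644).

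Tyrobp (Entrez 22177; chr7:30413782-30417582, plus strand), which couples Trem2 and several other receptors to Syk, was at 1089 and 798 CPM in WT and at 1304 and 1490 CPM in the labelled-deficient libraries. Its groups did not overlap, and the spread was wider in WT than in the labelled group. On the log2 scale the change was 0.57 (SE 0.24, 95% interval 0.038 to 1.09, adjusted p = 0.377), or 1.48-fold. Within each library, Tyrobp exceeded Trem2 in FPKM by 4.92-fold and 2.91-fold in WT and by 10.1-fold and 7.10-fold in the labelled-deficient libraries. As Tyrobp lay above and Trem2 below WT without overlap, the order of these ratios follows from the levels and is no further result.

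**Figure D3:**
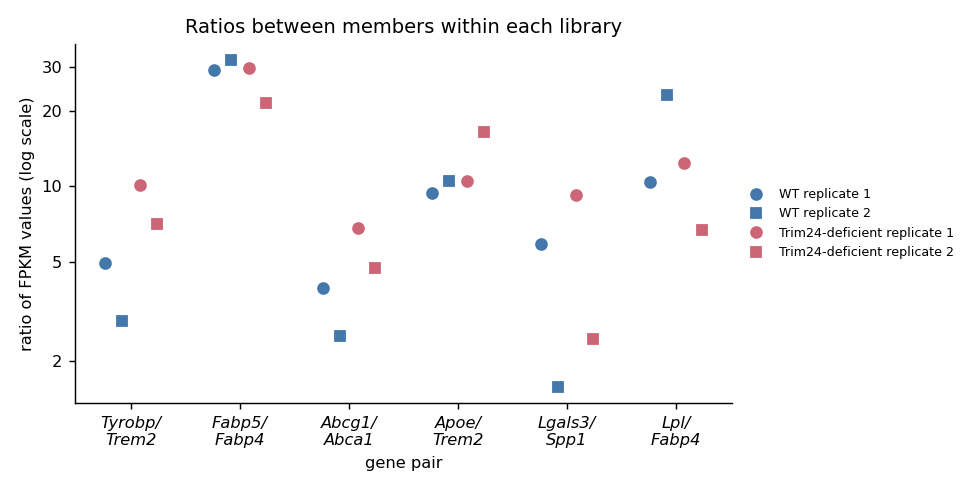
Ratio of FPKM values of pairs of the 10 genes within each library, on a log axis, with 1 point per library (blue WT, red labelled Trim24-deficient, circles replicate 1, squares replicate 2). The ratios of Tyrobp to Trem2 and of Abcg1 to Abca1 lie higher in both libraries labelled Trim24-deficient than in both WT libraries. That of Apoe to Trem2 does so by a narrow margin (10.50 in WT replicate 2, 10.52 in labelled replicate 1), whereas that of Lgals3 to Spp1 follows the replicate number. The pairs were chosen with the values known.

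Genes that carry and take up lipid showed no shared direction. Apoe (Entrez 11816; chr7:19696244-19701310, minus strand) was at 4663 and 6419 CPM in WT and at 3052 and 7758 CPM in the labelled-deficient libraries. The lowest and the highest library both belonged to the labelled group, 2.54-fold apart, and the WT libraries lay between them. The fitted log2 change was -0.036 (SE 0.39, 95% interval -0.92 to 0.85, adjusted p = 0.981), and it was -0.86 without replicate 2 of the labelled group and 0.49 without replicate 1 of that group. The 2 labelled-deficient libraries differed by more in Apoe than in 96.5% of tested genes.

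Lpl (Entrez 16956; chr8:68880555-68906932, plus strand), the lipase that frees fatty acids from triglyceride-rich lipoproteins, was at 430 and 602 CPM in WT and at 641 and 344 CPM in the labelled-deficient libraries. Here too the labelled group held both extremes, but in the reverse order to Apoe. Its log2 fold change of -0.067 (SE 0.30, 95% interval -0.75 to 0.62, adjusted p = 0.950) lay within the spread between replicates, and it moved between -0.58 and 0.32 as single libraries were left out. Lpl was the only one of the 10 genes with an expected count that was not whole in any library, as can arise where RSEM divides reads between genes.

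The 2 fatty acid-binding proteins, cytosolic chaperones of fatty acids, differed strongly in level. Fabp5 (Entrez 16592; chr3:10012585-10016610, plus strand), the epidermal form, was at 280 and 193 CPM in WT and at 358 and 257 CPM in the labelled-deficient libraries. The groups overlapped, as replicate 2 of the labelled group lay below WT replicate 1, and within each group replicate 1 was the higher. Its log2 fold change was 0.38 (SE 0.25, 95% interval -0.18 to 0.94, adjusted p = 0.567).

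Fabp4 (Entrez 11770; chr3:10204342-10208616, minus strand), the adipocyte form, lies on the same chromosome, and its expected counts were only 31 and 19 in WT and 37 and 38 in the labelled-deficient libraries. These correspond to 6.26 and 3.96 CPM in WT and 7.88 and 7.81 CPM in the labelled group, which lay above WT without overlap. Exact 95% Poisson intervals of the counts, which cover counting error only, ran from 11.4 to 29.7 in WT replicate 2 and from 26.9 to 52.2 in the highest library, so they overlapped. On the log2 scale the change was 0.61 (SE 0.40, 95% interval -0.29 to 1.52, adjusted p = 0.570). Fabp5 exceeded Fabp4 in FPKM by 21.6-fold to 31.8-fold in the 4 libraries.

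As both Lpl and Fabp4 are abundant in fat cells, and Fabp4 in capillary endothelium, markers of these cells were read in the same libraries. Of 9 adipocyte markers, 6 were at 0 in every library, namely Adipoq, Plin1, Cidec, Car3, Cfd and Retn, Lep and Pck1 were at or near the floor, and the summed level of 20.7 to 33.4 CPM came almost wholly from Lipe, a lipase gene that macrophages also express. The endothelial markers Cdh5 and Emcn reached at most 2.92 and 0.202 CPM, and Cldn5 was at 0 in every library. Kdr stood at 2.83 to 9.17 CPM and Vwf at 1.88 to 4.32 CPM, beside 3.96 to 7.88 CPM for Fabp4. The part of endothelial cells in the Fabp4 level was not tested. The endothelial list summed to 25.4 to 91.2 CPM with 0 called of the 4 of 9 markers tested. The highest sum, in replicate 1 of the labelled group, came with Flt1 at 45.4 CPM and Pecam1 at 36.0 CPM. Keratinocytes are known for Fabp5, and 5 of 6 keratinocyte markers were at 0 in every library.

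The cholesterol exporters also had log2 fold changes of opposite sign that did not pass the test. Abca1 (Entrez 11303; chr4:53030789-53159988, minus strand), which loads cholesterol onto lipid-poor apolipoprotein, was at 96.7 and 137 CPM in WT and at 92.7 and 75.2 CPM in the labelled-deficient libraries. The labelled libraries were below WT without overlap, with replicate 1 of the labelled group close to WT replicate 1. The fitted log2 change was -0.48 (SE 0.22, 95% interval -0.98 to 0.022, adjusted p = 0.421). Across tested genes, log2 fold change fell with transcript length (Spearman's rho -0.249, genes not being independent), and Abca1 has the longest transcript of the 10 (10260 bases). With the length trend removed from each library, the change of Abca1 was -0.17 (adjusted p = 0.749). The other genes without overlap moved as well under this setting. Tyrobp went from 0.57 to 0.47, Fabp4 from 0.61 to 0.52, Lgals3 from 0.54 to 0.47 and Trem2 from -0.54 to -0.66.

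Abcg1 (Entrez 11307; chr17:31057694-31117984, plus strand), which exports cholesterol to high-density lipoprotein, was at 214 and 195 CPM in WT and at 358 and 201 CPM in the labelled-deficient libraries. Only replicate 1 of the labelled group stood apart from the rest, the library that also had the highest sums of T and NK cell, dendritic cell and endothelial markers, whose part in this level was not tested. The log2 fold change of 0.45 (SE 0.27, 95% interval -0.15 to 1.05, adjusted p = 0.532) became -0.020 (adjusted p = 0.972) without that library, and 0.81 (adjusted p = 0.0213) without replicate 2 of the labelled group. The FPKM ratio of Abcg1 to Abca1 was 3.91 and 2.51 in WT and 6.83 and 4.72 in the labelled-deficient libraries, a pair chosen with the values known.

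Lgals3 and Spp1, both secreted proteins that bind glycans or integrins, showed different patterns over the libraries. Lgals3 (Entrez 16854; chr14:47373860-47386167, plus strand), which encodes galectin-3, the Mac-2 antigen of macrophages, was at 1841 and 1296 CPM in WT and at 2395 and 2179 CPM in the labelled-deficient libraries. Both labelled libraries were above both WT libraries. Its log2 fold change was 0.54 (SE 0.24, 95% interval -0.0063 to 1.09, adjusted p = 0.413). It kept its sign with each library left out, between 0.31 and 0.84, as did Tyrobp, between 0.36 and 0.82.

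Spp1 (Entrez 20750; chr5:104435111-104441053, plus strand), which encodes osteopontin, was the most variable of the 10 genes. It was at 323 and 841 CPM in WT and at 265 and 907 CPM in the labelled-deficient libraries. Replicate 2 was high and replicate 1 low under both labels, 2.60-fold apart in WT and 3.41-fold apart in the labelled group, which was a wider gap than in 98.7% and 98.5% of tested genes, respectively. On the log2 scale the change was 0.011 (SE 0.54, 95% interval -1.21 to 1.23, adjusted p = 0.994), and it was below 0 with library totals or upper-quartile factors in place of TMM (-0.16 and -0.054), where library totals moved the median of all tested genes to -0.15. Without replicate 2 of the labelled group it was -1.13 (adjusted p = 0.0449), and without WT replicate 2 it was 0.86 (adjusted p = 0.999). Apoe, high in replicate 2 under both labels, had the most similar pattern to Spp1 among the other members (Pearson's r = 0.94 over the 4 libraries, a description with no test, as all points share their libraries' scaling).

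**Figure D4:**
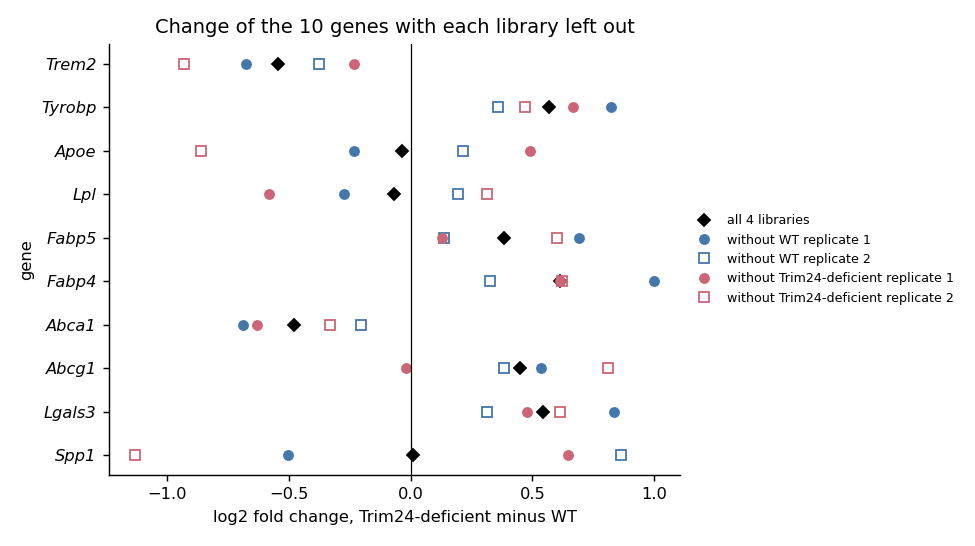
Log2 fold change of each of the 10 genes, libraries labelled Trim24-deficient minus WT, with all 4 libraries (black diamonds) and with each library left out (blue WT, red labelled Trim24-deficient, filled circles without replicate 1, open squares without replicate 2). Trem2 and Abca1 stay below 0 and Tyrobp, Fabp5, Fabp4 and Lgals3 above 0, whereas Spp1, Apoe, Lpl and Abcg1 fall on both sides of 0.

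The genes whose pattern lay nearest to Trem2, by the root mean square difference of centered log2 CPM over the 4 libraries among 5341 well-expressed genes, included Eif3b, Aopep, Rab11fip5 and Pfas, at distances of 0.020 to 0.061. Eif3b, a translation initiation factor subunit, was at 86.8 and 112 CPM in WT and at 52.0 and 85.5 CPM in the labelled-deficient libraries. Of the other 9 members, Fabp4 was too weakly expressed to enter this comparison, and none of the rest was among the 5 nearest.

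Further genes of the same pathways were read from 6 lists, of which 74 of 79 genes were tested, and 1 was called (edgeR, higher, against 0.372% of all tested genes). Their median log2 fold change was 0.17, with 46 of 74 above 0, beside -0.0059 over all tested genes. At an unadjusted p below 0.05 stood 17 of 74, against 12.2% of all tested genes. Without overlap, 29 of 74 lay above WT and 14 below, against 21.5% and 23.0% of all tested genes. The called gene was Clec7a, which encodes Dectin-1, a receptor of fungal glucans that also marks lipid-associated microglia and macrophages. It was at 63.0 and 44.8 CPM in WT and at 189 and 133 CPM in the labelled-deficient libraries, a log2 fold change of 1.58 (95% interval 1.03 to 2.12, adjusted p = 0.0349). The call was lost without WT replicate 2 (1.35, adjusted p = 0.235), with library totals (1.43, adjusted p = 0.0688), with upper-quartile factors (1.52, adjusted p = 0.0519) and with limma on FPKM (1.39, adjusted p = 0.141).

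Among 10 genes of TREM2 signalling, 0 were called and 9 had a log2 fold change above 0 (median 0.20). Inpp5d, a phosphatase that restrains the pathway, was at 320 and 321 CPM in WT and at 326 and 289 CPM in the labelled-deficient libraries. Log2 fold changes were for Vav1, an exchange factor downstream of Syk, 0.44 (adjusted p = 0.413), for Adam17, a sheddase of Trem2, 0.20 (adjusted p = 0.739) and for Hcst, the alternative adaptor DAP10, 0.65 (adjusted p = 0.405). Trem1, the inflammatory relative of Trem2 that uses the same adaptor, was at 4.44 and 5.83 CPM in WT and at 10.4 and 19.3 CPM in the labelled libraries (log2 fold change 1.53, adjusted p = 0.181). It was thus above WT in both labelled libraries, opposite to Trem2, but did not pass the test.

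Of 14 genes of LXR and its targets, 13 were tested, 0 were called and 7 lay above 0 (median 0.082). Nr1h3, which encodes LXRα, was at 37.0 and 24.6 CPM in WT and at 89.7 and 48.5 CPM in the labelled-deficient libraries (log2 fold change 1.16, adjusted p = 0.194). Among targets, Smpdl3a, a phosphodiesterase gene, differed by 0.77 on the log2 scale (adjusted p = 0.187), while Pltp, the phospholipid transfer protein, differed by -0.12 (adjusted p = 0.848) and Lpcat3, which remodels membrane phospholipids, by 0.082 (adjusted p = 0.893).

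Of 15 genes of fatty acid uptake, PPAR and lipid droplets, 13 were tested and 0 were called (7 above 0, median 0.063). Plin2, the main coat protein of macrophage lipid droplets, was at 659 and 670 CPM in WT and at 782 and 1005 CPM in the labelled-deficient libraries (log2 fold change 0.43, adjusted p = 0.457), and Hilpda, an inhibitor of droplet lipolysis, differed by 0.71 on the same scale (adjusted p = 0.266). Cd36, the fatty acid scavenger receptor, differed by -0.20 (adjusted p = 0.750) and Slc27a1, a fatty acid transporter, by -0.72 (adjusted p = 0.232).

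Of 11 genes of cholesterol uptake, storage and lysosomal release, 9 were tested, 0 were called and 6 lay above 0 (median 0.35). Without overlap between the groups, 6 of 9 lay above WT and 3 below in this list, where 21.5% and 23.0% of all tested genes did. The counts were 5 and 0 of 10 in TREM2 signalling and 5 and 3 of 13 in LXR and its targets. They were 4 and 3 of 13 in the fatty acid list and 7 and 3 of 20 in the further markers. In the partners of osteopontin and galectin-3 they were 2 and 2 of 9. Msr1, the scavenger receptor for modified lipoproteins, was at 817 and 649 CPM in WT and at 1046 and 1131 CPM in the labelled-deficient libraries (log2 fold change 0.57, adjusted p = 0.340). Npc2, which moves cholesterol out of lysosomes, differed by 0.35 (adjusted p = 0.539) and Lrp1, a receptor of Apoe, by -0.51 on the log2 scale (adjusted p = 0.430).

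Of 20 further markers of lipid-associated macrophages, 20 were tested, Clec7a was the 1 called and 13 lay above 0 (median 0.16). The lysosomal proteases Ctsb, Ctsd and Ctsz were the most abundant, at mean levels of 13118, 4831 and 2161 CPM, with log2 fold changes of 0.35, -0.16 and 0.42 (adjusted p = 0.609, 0.826 and 0.494). Ccl6, a macrophage chemokine, was at 1024 and 603 CPM in WT and at 2068 and 2573 CPM in the labelled-deficient libraries (log2 fold change 1.51, adjusted p = 0.0759), and its adjusted p ran from 1.29e-11 with the replicate block to 0.522 without WT replicate 2. Bhlhe41, a transcription factor gene, was at 51.9 and 80.6 CPM in WT and at 20.4 and 39.9 CPM in the labelled group (log2 fold change -1.13, adjusted p = 0.213).

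Of 9 partners of osteopontin and galectin-3, 9 were tested and 0 were called (4 above 0, median -0.024). Lgals3bp, a glycoprotein that binds galectin-3, differed by 0.21 on the log2 scale (adjusted p = 0.737), Lgals9, another galectin, by 0.46 (adjusted p = 0.419) and Itgb1, an integrin chain shared by several receptors, by -0.24 (adjusted p = 0.764). Itgb5, an integrin chain of an osteopontin receptor, was at 71.7 and 113 CPM in WT and at 39.0 and 59.6 CPM in the labelled-deficient libraries (log2 fold change -0.90, adjusted p = 0.224).

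**Figure D5:**
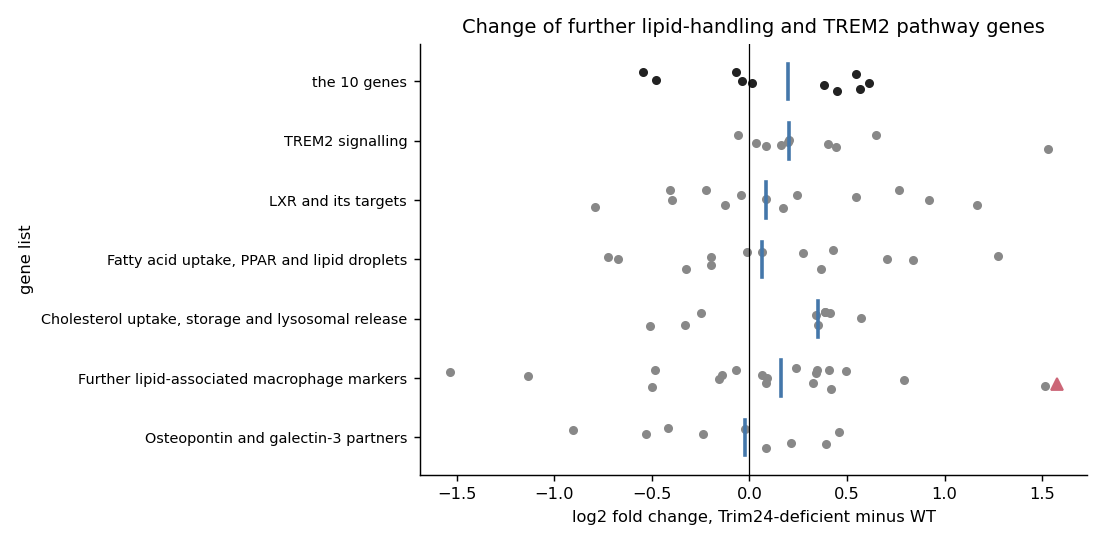
Log2 fold change of single genes, libraries labelled Trim24-deficient minus WT, for the 10 genes (black) and 6 lists of further pathway genes (grey), with 1 point per tested gene. Blue bars are list medians, and the red triangle is Clec7a, the 1 gene called. Medians lie between -0.024 and 0.35, and single genes spread on both sides of 0 in every list.

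Markers of monocytes, which reach the tumor from blood and become TAMs there, did not share one pattern. Of 7 tested, 2 were called, both higher in the labelled-deficient libraries, where 0.372% of all tested genes were called. Vcan was at 12.1 and 16.5 CPM in WT and at 13.2 and 18.1 CPM in the labelled-deficient group, which overlapped. F13a1 overlapped as well, with 514 and 475 CPM in WT against 320 and 1163 CPM. The list summed to 1040 and 1127 CPM in WT and to 1990 and 2236 CPM in the labelled-deficient group, where F13a1 supplied the largest share of the last sum. Among the called markers was Hp, haptoglobin, at 6.87 and 7.71 CPM in WT and at 22.6 and 31.2 CPM in the labelled-deficient group (log2 fold change 1.88, adjusted p = 0.0368). Its call was lost with limma on log2(FPKM + 1) (adjusted p = 0.0782), library totals (0.0737), upper-quartile factors (0.0519), without WT replicate 1 (0.0827) and without WT replicate 2 (0.121). The part of these cells in the levels of Trem2, Tyrobp, Lgals3 and Abca1 was not tested.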

How the data were processed

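Gene tables of 4 TAM libraries (2 WT, 2 labelled Trim24-deficient) were used, grouped by their titles. Per the submitters' processing notes, Bowtie and RSEM were run on build GRCm38 (mm10). The authors deposited RSEM's expected count of each gene, which is not normalized. The authors also deposited FPKM values, scaled to transcript length and library total, and a mean transcript length in bases. Versions are not given in the sources used here. A gene missing from a table was set to 0. Of 16739 genes, 16698 matched a RefSeq symbol.

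Expected counts were rounded and fitted with edgeR 4.0.16 in R 4.3.3 (filterByExpr, TMM, glmQLFit and glmQLFTest, no block), with calls at a fold change above 1.5 and a Benjamini-Hochberg FDR below 0.05 over 11302 tested genes, the thresholds of the study. All 10 genes passed the filter. SE is the log2 fold change divided by the square root of F. Alternatives were DESeq2 1.42.0, limma 3.58.1 on log2 FPKM with a pseudocount of 1 or 0.1 (at least 1 FPKM in 2 libraries), other scalings and filters, removal of the length trend, the replicate block, and each library left out. Scripts were tested on simulated data. Named pathway genes are the called ones and, per list, at most 3 with the highest mean CPM and 2 with the lowest p. The 10 genes, lists, motifs and gene pairs were chosen with earlier results of these data known. Some genes that this rule would name are not reported here.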

Additional observations from a re-analysis of the deposited data

How the results depend on the processing

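The count of 0 of 10 genes called held under every alternative except leaving out single libraries, where it ran from 0 to 3, the 3 being Trem2, Abcg1 and Spp1 without labelled-deficient replicate 2. For all tested genes, 42 calls became 163 with DESeq2, which also took 16692 genes in place of 11302 (edgeR on those 16692 called 62), 23, 20 and 0 with limma on log2(FPKM + 1), on log2(FPKM + 0.1) and on log2(FPKM + 1) for all genes (23 being 14 higher and 9 lower), 96 at an FDR below 0.1, and 25 to 652 with a library left out. For the other pathway genes, 1 call became 2 with DESeq2, with no low-count filter and at an FDR below 0.1, 0 with library totals, upper-quartile factors and each limma fit, and 0 to 13 with a library left out. A group left with 1 library is assumed to vary like the other.

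With the replicate block, 634 genes (425 higher, 209 lower), 13 other pathway genes and 0 of the 10 genes were called. Tyrobp, Lgals3 and Trem2 then had adjusted p = 0.0652, 0.0668 and 0.0818. That fit leaves 1 residual degree of freedom and takes its spread from all genes. Deviations of same-numbered samples correlated at 0.165 across genes, and the samples share only a number.

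Signs turned for Spp1 with library totals (-0.16), upper-quartile factors (-0.054), at least 10 counts in every library (-0.00034), each of the 3 limma fits (-0.23), the length trend removed (-0.11) and the replicate block (-0.084), and for Lpl with the length trend removed (0.0019). With a library left out, log2 fold changes ran from -1.13 to 0.86 for Spp1, -0.86 to 0.49 for Apoe, -0.58 to 0.32 for Lpl and -0.020 to 0.81 for Abcg1. The causes were not tested. Of 140 alternative values of the 10 genes, 122 kept their sign and stayed uncalled. Library totals moved the median of all genes to -0.15. Counts of 19 to 38 limit Fabp4.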
